A study of Mus musculus with 4 samples.

Results

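The epithelial-to-mesenchymal transition (EMT) programme was examined through 10 genes that are widely used to describe phenotype switching in melanoma. These included 5 EMT transcription factors, *Snai1*, *Snai2*, *Twist1*, *Zeb1* and *Zeb2*. The others were 3 classical cadherins, *Cdh1*, *Cdh2* and *Cdh3*, and 2 mesenchymal markers, *Vim* and *Fn1*. All 10 were taken by their symbols and were found among the 39179 genes listed for each library.

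RNA-seq compared parental B16F1 cells, a mouse melanoma cell line, with tumor repopulating cells (TRCs), which are the B16F1 cells that grew into spheroids from single cells in soft 3D fibrin gels and were isolated from the gels for RNA extraction. There were 4 libraries, 2 parental and 2 TRC, and the sample names carry the numbers 1 and 3 in each group. No transgene, drug or knockout distinguished the groups. TRCs are the minority of seeded cells that survived in the gel and parental cells were the unselected line, so selection, the gel and growth as spheroids cannot be told apart in this comparison.

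In an epithelium, E-cadherin (*Cdh1*) joins neighbouring cells and is tied to actin through catenins, and the factors of the SNAI, ZEB and TWIST families bind E-box sequences and repress it. In melanoma these factors do not act as a block. Melanocytes and differentiated melanoma cells normally carry *Snai2* and *Zeb2*, whereas *Twist1* and *Zeb1* are associated with a dedifferentiated and invasive state. A change from *Cdh1* to *Cdh2* is known as the cadherin switch, and it lets melanocytic cells leave the contact with keratinocytes. Vimentin (*Vim*) forms the intermediate filaments of mesenchymal and neural crest derived cells, and fibronectin (*Fn1*) is a secreted matrix glycoprotein bound by integrins.

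Between 35948295 and 43511554 counts fell on genes in each library, and 15.2% to 25.2% of the alignments were not unique and were assigned to no gene, with the highest share in TRC replicate 3. The labelled cell type was checked against markers. All 8 melanocytic genes were tested and lay between 46.2 CPM (counts per 1e6 counts of the library, scaled by TMM factors) for *Tyr* in parental replicate 3 and 11154 CPM for *Dct* in TRC replicate 1. All 5 keratinocyte markers had 0 counts in every library, and summed levels were from 1.71 to 4.97 CPM for 6 leukocyte markers, from 2.04 to 4.68 CPM for 6 fibroblast markers and from 0.567 to 2.50 CPM for 5 endothelial markers. The leukocyte markers *Ptprc*, *Cd3e* and *Itgam* and the endothelial markers *Cdh5* and *Kdr* were at 0 counts in every library. The highest levels among the others were 4.12 CPM for *Cd68* and 3.24 CPM for the fibroblast marker *Col1a1*, both in parental replicate 1, and 2.45 CPM for the endothelial marker *Vwf* in TRC replicate 3. *Lyz2* reached 0.810 CPM, *Pecam1* reached 0.170 CPM, and *Pdgfra* lay between 1.08 and 1.83 CPM.

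*Zeb2*, *Snai2*, *Cdh2*, *Vim* and *Fn1* were above 1 CPM in all 4 libraries. *Snai1*, *Zeb1*, *Twist1*, *Cdh1* and *Cdh3* did not reach 1 CPM in 2 libraries, the minimum for testing. Of the 5 genes tested, *Fn1* was lower in TRCs at a false discovery rate (FDR) under 0.05 in edgeR's exact test, with Benjamini-Hochberg adjustment over all 11483 genes tested. The other 4 did not pass, and no member was called higher. This count of 1 in 5 stands against 15.9% of all tested genes called in either direction, with 7.05% called lower and 8.81% called higher. At an unadjusted p under 0.05 there were 3 members, *Fn1*, *Vim* and *Cdh2*, against 28% of all genes. The groups did not overlap for 4 of the 5, against 60.6% of all genes. The median log2 fold change of the 5 tested members was −0.52, against 0.0034 for all genes tested. These are bulk libraries, in which fewer cells with a transcript and less transcript per cell cannot be told apart.

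**Figure D1:**
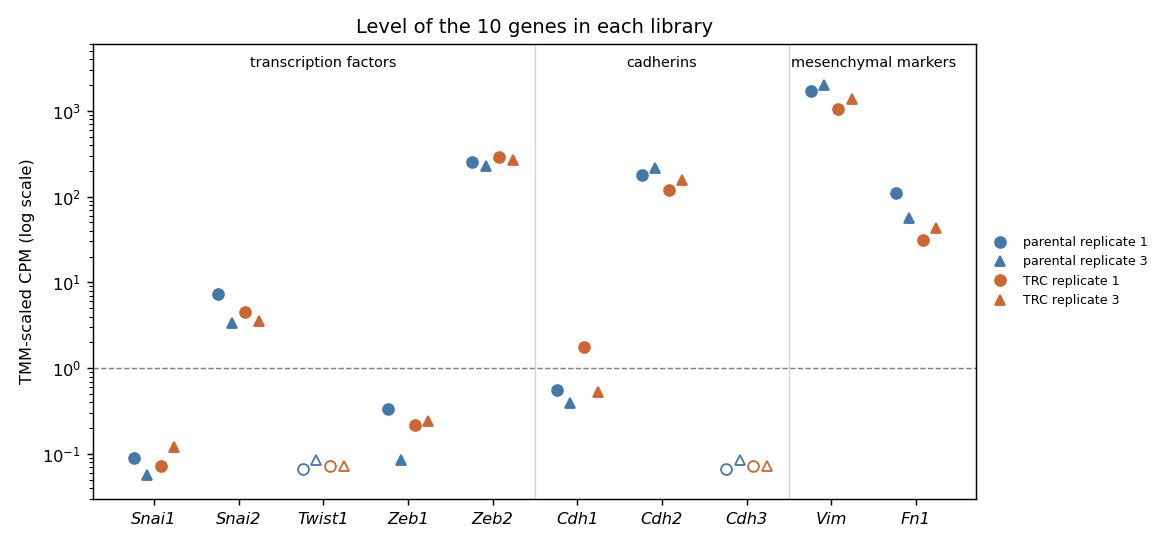
Level of each of the 10 genes in each library, as TMM-scaled CPM on a log axis, with parental libraries in blue and TRC libraries in orange, replicate 1 as circles and replicate 3 as triangles. Open symbols mark 0 counts and are drawn at the level of 3 counts, and the dashed line marks 1 CPM. *Vim*, *Zeb2*, *Cdh2* and *Fn1* lie at or above 31.5 CPM in every library, *Snai2* lies between 3.40 and 7.38 CPM, and the other 5 genes lie below 1 CPM except *Cdh1* in TRC replicate 1.

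Per kilobase of exon, the order of the mean levels over the 4 libraries was *Vim* (321 CPM per kb), *Cdh2* (20.8), *Zeb2* (13.0), *Fn1* (5.17), *Snai2* (2.34), *Cdh1* (0.177), *Snai1* (0.0523) and *Zeb1* (0.0214), with *Twist1* and *Cdh3* at 0. The ranges over libraries did not overlap between neighbours in this order except for *Fn1* and *Snai2*, which ran from 2.69 to 9.48 and from 1.68 to 3.65 CPM per kb. The order of *Snai1* and *Zeb1* rests on 2 to 15 counts per library. Lengths are those of all exons of a gene annotated in GENCODE M21, which for *Zeb2* come to 19942 bases and exceed any single transcript. The order of *Cdh2* and *Zeb2* depends on these lengths. Before division by length, *Zeb2* (230 to 287 CPM) was above *Cdh2* (119 to 218 CPM) in every library.

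*Zeb2* (ENSMUSG00000026872, minus strand, chr2:44983632-45117395 in GRCm38), the zinc-finger and homeodomain repressor that marks the differentiated melanocytic state, was the leading factor in every library. It had 251 and 230 CPM in parental replicates 1 and 3 and 287 and 266 CPM in TRC replicates 1 and 3. Both TRC libraries lay above both parental libraries, as they did for 30.2% of all genes tested. The log2 fold change was 0.20 (SE 0.19) with an FDR of 0.605, and the 95% interval of the fold change ran from 0.892 to 1.49. Fits that left out 1 library gave log2 fold changes from 0.13 to 0.27. Its overlapping antisense gene *Zeb2os* had 37 to 73 counts, against 8099 to 11935 for *Zeb2*, and whether counting used the strand is not given in the sources used here.

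*Snai2* (ENSMUSG00000022676, plus strand, chr16:14705852-14709385), a neural crest factor needed for melanocyte development, was the only SNAI gene above the filter. It had 7.38 CPM in parental replicate 1 and 3.40 CPM in parental replicate 3, with 4.57 and 3.58 CPM in TRC replicates 1 and 3. Both TRC values fell between the parental values. The log2 fold change was −0.41 (SE 0.49, FDR = 0.641), with a 95% interval of the fold change from 0.390 to 1.47, and without parental replicate 1 it was 0.26. A direction could not be given for *Snai2*.

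The other 3 factors were near or below detection. *Snai1*, often the first repressor induced in EMT, had 4 and 2 counts in the parental libraries and 3 and 5 counts in the TRC libraries, which is 0.0567 to 0.120 CPM. The 95% Poisson intervals of these values, which cover counting error only, reached from 0.00686 CPM at the lowest bound to 0.280 CPM at the highest, and all 4 overlapped. *Zeb1*, on chromosome 18, had 15 and 3 counts in the parental libraries (replicates 1 and 3) and 9 and 10 counts in the TRC libraries. The 2 parental libraries were the extremes, at 0.337 and 0.0850 CPM, with both TRC libraries between them at 0.217 and 0.240 CPM. *Twist1* had 0 counts in all 4 libraries, with upper 95% Poisson bounds from 0.0830 to 0.105 CPM. A difference between the groups was not detectable at this depth for these 3 genes. Without the filter, the FDR was 1 for both *Snai1* and *Zeb1*.

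Of the summed level of the 5 factors per kb, *Zeb2* made up 77.1% and 87.0% in the parental libraries and 86.1% and 87.7% in the TRC libraries. *Snai2* made up 22.4% and 12.7% in parental cells and 13.5% and 11.6% in TRCs. *Snai1* stayed between 0.264% and 0.487% and *Zeb1* between 0.0626% and 0.201%. The level of *Zeb1* per kb, from raw counts, was from 0.00072 to 0.0026 times that of *Zeb2*. On the log2 scale this ratio was −8.58 and −10.44 in the parental libraries and −9.42 and −9.16 in the TRC libraries. The TRC libraries lay between the parental ones (exact permutation test, two-sided, p = 1, where 2 against 2 libraries cannot give less than 0.333). With 0.5 CPM added to both genes before the ratio, the difference between the group means was −0.15, against 0.23 from raw counts.

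The sequences upstream of *Zeb2*, *Snai1* and *Twist1* are shown because they set the one abundant factor beside factors with few or no counts. They are the 250 bases before the transcription start from RefSeq (GRCm38.p6), 5′ to 3′ on the gene's strand, with capitals for CACCTG or CAGGTG, the E-box form bound by SNAI and ZEB proteins, searched on both strands (the 2 forms are reverse complements). The promoter table held 4 of the 10 genes. Where several starts were listed, as for *Zeb2*, the most upstream was taken.
Zeb2 chr2:45117443-45117692 (minus strand): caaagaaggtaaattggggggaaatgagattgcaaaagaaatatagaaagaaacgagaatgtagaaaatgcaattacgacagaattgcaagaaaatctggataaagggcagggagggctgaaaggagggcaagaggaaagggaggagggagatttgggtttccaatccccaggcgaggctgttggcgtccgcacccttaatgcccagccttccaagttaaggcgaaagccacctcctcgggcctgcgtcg
Snai1 chr2:167537945-167538194 (plus strand): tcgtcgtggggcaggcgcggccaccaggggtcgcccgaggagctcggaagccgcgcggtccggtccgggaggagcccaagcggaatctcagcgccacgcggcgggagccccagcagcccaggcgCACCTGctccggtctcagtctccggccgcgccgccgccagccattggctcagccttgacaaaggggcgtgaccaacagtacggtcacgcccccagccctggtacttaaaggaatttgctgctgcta
Twist1 chr12:33957421-33957670 (plus strand): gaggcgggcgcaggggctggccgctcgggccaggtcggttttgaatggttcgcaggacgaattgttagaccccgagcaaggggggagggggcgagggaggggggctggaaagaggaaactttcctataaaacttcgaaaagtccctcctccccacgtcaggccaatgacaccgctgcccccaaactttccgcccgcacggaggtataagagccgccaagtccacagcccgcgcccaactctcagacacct

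The *Snai1* window held 1 such E-box, whose first base lies 126 bases before the start, and the other 2 windows held none, where 17.2% of 32851 promoters of this length held at least 1. The windows also differed in CpG dinucleotides, with 27 for *Snai1*, 18 for *Twist1* and 9 for *Zeb2*. Of all promoters, 91.4%, 78.3% and 59.7% had fewer CpGs than these, and the median was 6. The *Zeb2* window, from 1 of 4 listed starts, had the fewest CpGs of the 3. Whether CpG content goes with the level of these genes was not tested. These are descriptions of sequence, and no binding or methylation was measured.

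*Zeb2* and *Zeb1* are the textbook targets of the miR-200 family, whose members bind their 3′UTRs and are in turn repressed by ZEB proteins. The family falls into a pair of seed groups that differ at 1 base. Mature sequences from RefSeq (GRCm38.p6) are given 5′ to 3′ with the seed, bases 2 to 8, in capitals, and *Zeb2* target sites with the bases that match a seed in capitals.
mmu-miR-200a-3p (same seed as miR-141-3p): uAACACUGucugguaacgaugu
mmu-miR-200b-3p (same seed as miR-200c-3p and miR-429-3p): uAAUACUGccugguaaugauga
Zeb2 site 1, chr2:44988348-44988374 (minus strand): aaattttgtaCAGTGTTaaggcctaaa
Zeb2 site 3, chr2:44988099-44988125 (minus strand): tacagtgcatCAGTATTacgattcctc
Zeb2 site 4, chr2:44987816-44987842 (minus strand): catccttgtaCAGTGTTcagagggtaa
Zeb2 site 7, chr2:44987652-44987678 (minus strand): ttaattttgtCAGTATTacaccaaact

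The longest annotated *Zeb2* 3′UTR in GENCODE M21, of 4941 bases, held 9 such matches, 5 of CAGTATT and 4 of CAGTGTT, on the transcript strand. The 4 shown cover both seeds. Of 1085 other 3′UTRs with 80% to 125% of this length, 66.8% held at least 1 match, the median was 1, and 0 held as many as 9. The *Zeb1* 3′UTR also held 9 matches, in 2401 bases, *Snai2* and *Fn1* held 2 each, *Snai1* held 1, and the 3 cadherins, *Twist1* and *Vim* held 0. The ZEB genes held equal numbers of sites in 3′UTRs of unequal length, and the comparison with other 3′UTRs was made for *Zeb2* only. Whether these sites act in these cells was not tested. The genes *Mir200a*, *Mir200b*, *Mir429*, *Mir141* and *Mir200c* had 0 counts in each library, but polyA libraries do not measure mature miRNAs.

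*Cdh2*, which encodes N-cadherin, made up 97.5% to 99.7% of the summed level per kb of *Cdh1*, *Cdh2* and *Cdh3* in the 4 libraries. Other cadherins are not part of this sum. It lies on chromosome 18 (ENSMUSG00000024304) and had 178 and 218 CPM in parental replicates 1 and 3, and 119 and 157 CPM in TRC replicates 1 and 3. Both TRC libraries were below both parental libraries, as for 30.4% of all genes tested. The log2 fold change was −0.52 (SE 0.23, unadjusted p = 0.0322, FDR = 0.133), and the 95% interval of the fold change ran from 0.506 to 0.958. The difference did not pass the threshold, and leaving out 1 library gave log2 fold changes from −0.75 to −0.35.

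*Cdh1*, which encodes E-cadherin (ENSMUSG00000000303, chr8:106603351-106670246), had 25 and 14 counts in the parental libraries (replicates 1 and 3) and 73 and 22 counts in the TRC libraries. This is 0.562 and 0.397 CPM in parental cells, and 1.76 and 0.529 CPM in TRCs. The groups overlapped, since TRC replicate 3 lay between the parental libraries. Only TRC replicate 1 stood above the others, with a Poisson interval from 1.38 to 2.21 CPM against a highest upper bound of 0.830 CPM in the other 3. The filter removed the gene. In edgeR's exact test without the filter its log2 fold change was 1.21 (FDR = 0.312), and where genes needed 10 counts in every library it was 1.24 (FDR = 0.185). *Cdh3*, the P-cadherin gene that lies next to *Cdh1* on chromosome 8 (chr8:106510891-106557297), had 0 counts in all 4 libraries, which allows up to 0.0675 to 0.0850 CPM.

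The level of *Cdh2* per kb, from raw counts, was 180 and 312 times that of *Cdh1* in parental replicates 1 and 3, and 38.3 and 168 times in TRC replicates 1 and 3. Both TRC ratios were below both parental ratios, with a difference of −1.56 between the group means on the log2 scale (exact permutation test, two-sided, p = 0.333, the smallest that this design allows). With 0.5 CPM added to both genes the difference was −1.17, and without TRC replicate 1 it was −0.40. The lowest of the 4 ratios, 38.3 times, was in TRC replicate 1.

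**Figure D2:**
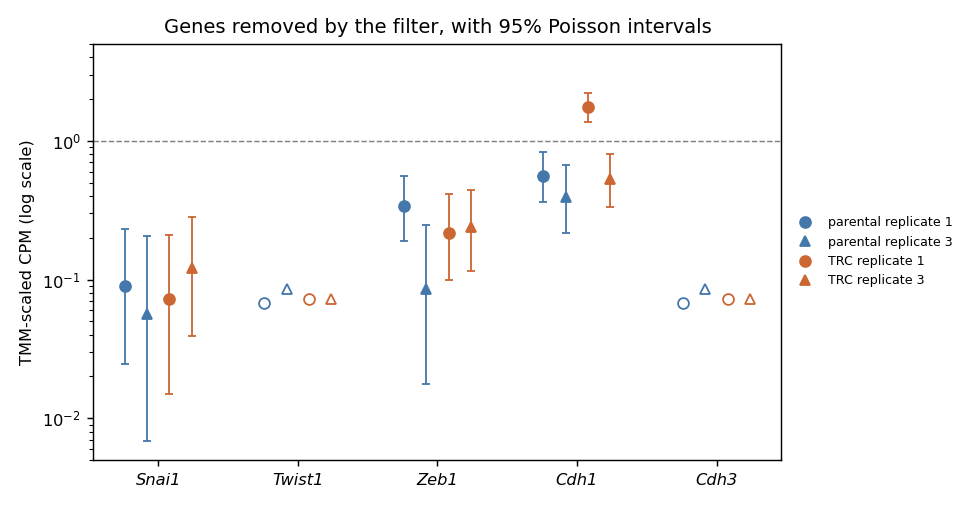
The 5 genes that the filter removed, as TMM-scaled CPM on a log axis in each library, with bars for exact 95% Poisson intervals, which cover counting error only. Parental libraries are blue, TRC libraries orange, replicate 1 circles and replicate 3 triangles. Open symbols mark 0 counts, drawn at the level of 3 counts, and the dashed line marks 1 CPM. The intervals of *Snai1* overlap in all libraries, and TRC replicate 1 at 1.76 CPM stands above the other libraries in *Cdh1*.

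*Vim* (ENSMUSG00000026728, plus strand, chr2:13573927-13582826) was the most abundant of the 10 genes and exceeded 99.7% of all genes tested in mean CPM. It had 1694 and 1975 CPM in parental replicates 1 and 3, and 1061 and 1362 CPM in TRC replicates 1 and 3. Both TRC libraries were below both parental libraries. The log2 fold change was −0.60 (SE 0.22, unadjusted p = 0.0133, FDR = 0.0720), with a 95% interval of the fold change from 0.492 to 0.888. The exact test did not call it, whereas with library sizes alone the FDR was 0.0381 and in DESeq2's Wald test 0.0374. The counting error was small beside the spread between replicates, since each library held at least 44089 counts of *Vim*.

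*Fn1* (ENSMUSG00000026193, minus strand, chr1:71585520-71653200) fell from 83.5 ± 38.6 CPM (SD, n = 2) in parental cells to 37.2 ± 8.16 CPM (SD, n = 2) in TRCs. The single values were 111 and 56.2 CPM in parental replicates 1 and 3, and 31.5 and 43.0 CPM in TRC replicates 1 and 3. Both TRC libraries were below both parental libraries, but the 2 parental libraries differed from each other by 1.97 times. The log2 fold change was −1.17 (SE 0.33, FDR = 0.00295), a level 2.24 times higher in parental cells, with a 95% interval of the TRC to parental fold change from 0.284 to 0.703. It ranked 708 among the 11483 genes tested by FDR. Without parental replicate 1 the log2 fold change was −0.59 with an FDR of 0.155, and without TRC replicate 1 it was −0.98 with an FDR of 0.148. The quasi-likelihood test of edgeR gave an FDR of 0.0572. The counts are per gene and do not separate the spliced forms of fibronectin.

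**Figure D3:**
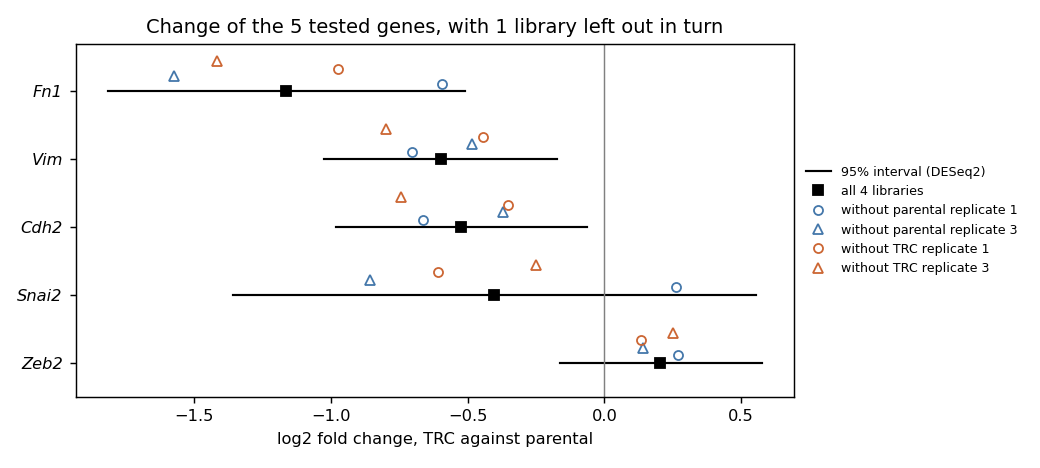
Log2 fold change, TRC against parental, of the 5 genes tested. Squares are values from all 4 libraries, lines are 95% intervals from DESeq2, and open symbols are values with 1 library left out. *Fn1* lies at −1.17 and moves to −0.59 without parental replicate 1, *Vim* and *Cdh2* stay below 0 with each library left out, *Zeb2* stays above 0, and *Snai2* changes sign.

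The 3 genes closest to *Fn1* in pattern were *Gbp2*, *Col4a1* and *Gm22077*, with distances of 0.21, 0.22 and 0.23, as the Euclidean distance of mean-centred log2(CPM + 0.5) values over the 4 libraries. Their log2 fold changes were −1.27, −1.21 and −1.37, with FDR values of 0.0367, 0.0066 and 0.0559. They were picked for a profile like that of *Fn1*, so a similar change follows from the choice. *Col4a1* encodes a chain of basement membrane collagen.

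The other genes of the programme were read from hand-written lists, as counts of genes called at FDR under 0.05 in each direction, against the 15.9% called among all genes. Of the 22 list genes called in all, 7 kept their call in every fit without 1 library and 15 did not. The 7 were *Hmga2*, *F11r*, *Col1a2*, *Postn*, *Loxl2*, *Itgb3* and *Dct*. *Loxl2* was below 1 CPM in both parental libraries, so it was tested only through the TRC libraries, where it was high, and had to differ. The share of all called genes that kept their call in these fits was not computed, so the kept calls have no background to be read against.

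Of 26 other EMT regulators, 11 were tested, 1 was called higher and 2 lower, with a median log2 fold change of −0.17. *Hmga2*, a chromatin protein that can induce SNAI and TWIST genes, fell from 46.7 ± 7.70 to 16.8 ± 2.07 CPM (SD, n = 2 each), with a log2 fold change of −1.47 (SE 0.25). *Id3*, an inhibitor of helix-loop-helix factors, fell by 1.55 on the log2 scale (FDR = 0.00715), and its FDR was between 0.181 and 0.279 without parental replicate 1 or TRC replicate 3. *Twist2* and *Prrx1* had 0 counts in all libraries. Of 18 corepressors and turnover factors that act on SNAI and ZEB proteins, 16 were tested and 0 were called in the exact test. The most abundant of these were *Smarca4* and *Ctbp1*, with log2 fold changes of −0.34 (FDR = 0.379) and −0.22 (FDR = 0.633).

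Of 18 further cadherins, 4 were tested and 0 were called, and 5 had 0 counts in all libraries. *Cdh19*, a cadherin of neural crest and Schwann cells, was the one beside *Cdh2* with a high level, at 171 and 124 CPM in parental replicates 1 and 3, and 138 and 131 CPM in TRC replicates 1 and 3 (log2 fold change −0.13, SE 0.23, FDR = 0.772). *Cdh13*, which lacks the cytoplasmic tail, had 4.18 and 0.397 CPM in the parental libraries and 4.02 and 4.66 CPM in the TRC libraries, so that the groups overlapped. Of 18 catenins and other junction partners, 13 were tested, 1 was called higher and 0 lower, with a median log2 fold change of 0.010. The cadherin-bound catenins *Ctnnb1*, *Ctnna1* and *Ctnnd1*, which link cadherins to actin and stabilise them at the membrane, had log2 fold changes of 0.31, 0.010 and 0.16 with FDR values of 0.438, 0.985 and 0.703. *Nectin2*, an immunoglobulin-like junction protein, rose from 24.6 ± 5.87 to 49.5 ± 6.32 CPM (SD, n = 2 each, FDR = 0.00252), and its FDR was between 0.0567 and 0.108 without parental replicate 1 or TRC replicate 1.

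Of 39 epithelial genes, 10 were tested, 3 were called higher and 0 lower, and the median log2 fold change was 0.43. *F11r*, which encodes the tight junction protein JAM-A, had a log2 fold change of 2.14 (SE 0.32). *Tjp3*, a tight junction scaffold, rose by 1.26 (FDR = 0.0325) and *Pkp2*, a desmosomal protein, by 1.59 (FDR = 0.0484). Both lost the call without parental replicate 3, TRC replicate 1 or TRC replicate 3, with FDR values up to 0.341 and 0.364. Of the list, 9 genes had 0 counts in all libraries, among them *Krt5*, *Krt14*, *Krt19*, *Cldn1*, *Cldn3*, *Cldn4* and *Cldn7*.

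Of 42 mesenchymal genes, 22 were tested, 6 were called higher and 5 lower, which is 50.0% called, and the median log2 fold change was −0.029. *Col1a2* and *Postn*, which encode a fibrillar collagen chain and the matrix protein periostin, fell as *Fn1* did. *Col1a2* had 6.70 and 7.79 CPM in the parental libraries and 1.52 and 1.01 CPM in the TRC libraries, and *Postn* had 28.6 and 14.7 CPM against 4.38 and 5.31 CPM. *Tpm1*, an actin-binding tropomyosin, fell by 0.83 on the log2 scale (FDR = 0.0125), with FDR values up to 0.301 without parental replicate 3, TRC replicate 1 or TRC replicate 3. In the other direction, *Loxl2*, a collagen-crosslinking oxidase, rose from 0.652 and 0.0850 CPM in the parental libraries to 3.54 and 8.60 CPM in the TRC libraries, and it passed the filter only through the latter. *Fbln1*, a matrix fibulin, rose by 0.87 (FDR = 0.00879), with FDR values from 0.209 to 0.230 without parental replicate 3 or TRC replicate 3.

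Of the integrin subunits that bind fibronectin, *Itgb3* rose from 14.6 and 6.72 CPM in parental replicates 1 and 3 to 38.4 and 40.2 CPM in TRC replicates 1 and 3 (log2 fold change 1.88, SE 0.36). *Itgav* had 191 CPM in both parental libraries, and 310 and 309 CPM in the TRC libraries (log2 fold change 0.70, FDR = 0.0173), and in each fit with 1 library left out its FDR was above 0.05, from 0.0745 to 0.142, while the log2 fold change stayed between 0.68 and 0.70. *Itga5*, the partner of *Itgb1* in the classical fibronectin receptor, had overlapping groups, with 26.6 and 8.64 CPM in parental cells and 10.7 and 25.4 CPM in TRCs. *Itgb1* had a log2 fold change of 0.36 (FDR = 0.313).

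Of 19 genes of the invasive melanoma state, 10 were tested, 2 were called higher and 1 lower, with a median log2 fold change of 0.23. *Axl*, a receptor tyrosine kinase, had 8.50 and 2.35 CPM in parental replicates 1 and 3, and 39.4 and 9.78 CPM in TRC replicates 1 and 3 (FDR = 0.00923), and its FDR was between 0.170 and 0.558 without parental replicate 3 or TRC replicate 1. *Nrp1*, a semaphorin and VEGF co-receptor, rose by 0.73 (FDR = 0.0198), with FDR values from 0.118 to 0.370 without parental replicate 1 or TRC replicate 1. *Tead4*, a DNA-binding partner of YAP, fell by 0.94 (FDR = 0.0297), and its FDR was above 0.05 in each fit with 1 library left out, from 0.0677 to 0.338. Of the 8 melanocytic genes, *Dct* was called higher with a log2 fold change of 1.08 (SE 0.21), 0 were called lower and the median was 0.31. *Mitf* and *Sox10*, the lineage factors that go with *Zeb2* in melanocytes, had log2 fold changes of 0.21 (FDR = 0.664) and 0.14 (FDR = 0.764).

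**Figure D4:**
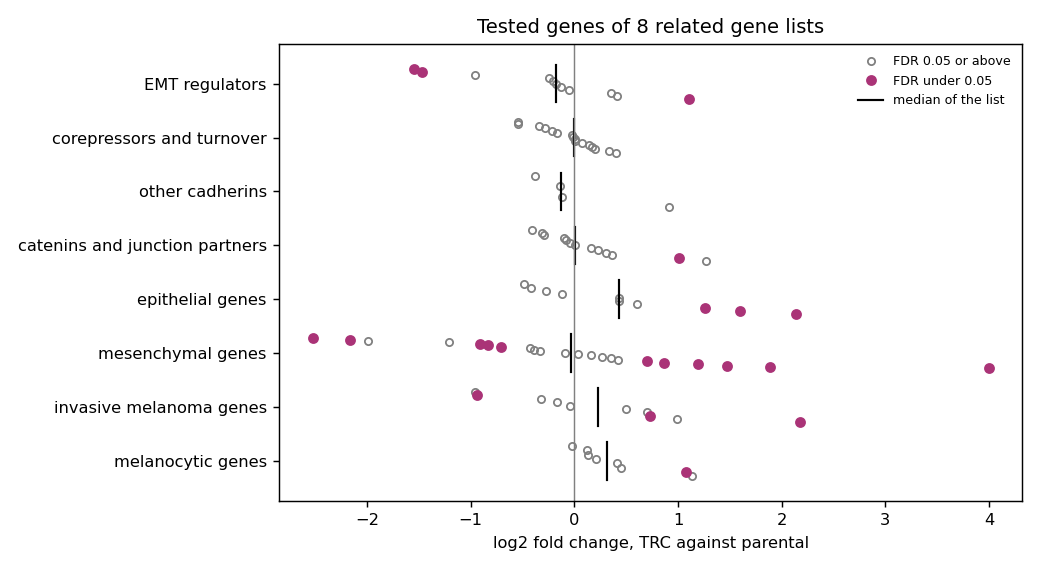
Log2 fold change, TRC against parental, of the tested genes of 8 related lists, 1 point per gene. Filled points have an FDR under 0.05 in edgeR's exact test, open points do not, and vertical bars mark the median of each list. Called mesenchymal genes lie on both sides of 0, with *Col1a2* at −2.52 the lowest and *Loxl2* the highest, the 3 called epithelial genes lie above 0, and the list of corepressors and turnover factors and the list of other cadherins hold no called gene.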

How the data were processed

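The authors prepared libraries with a stranded kit, from polyA RNA per the labels, used Trimmomatic 0.35 in single-end mode and TopHat2 2.1.0 against GRCm38, and htseq-count gave the number of reads per Ensembl gene. The deposited files hold these raw counts. Its mode and strand option are not given in the sources used here. Totals that are not genes were removed, and genes with under 1 CPM in at least 3 of the 4 libraries were filtered out, which left 11483 genes. Following the study's methods, edgeR 4.0.16 (R 4.3.3) supplied TMM factors, common and tagwise dispersions and its exact test (prior count 0.125), with Benjamini-Hochberg FDR under 0.05. The numbers of genes tested and called here both differ from those in the paper. DESeq2 1.42.0 supplied SEs and 95% intervals. CPM was taken over the TMM-scaled library size. Groups came from the sample labels. Nothing states that libraries came from separate cultures, so p-values measure only the spread between these libraries, which may be technical. Poisson intervals and floors of 3 counts cover counting error only.

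The members and lists were chosen with earlier results of these data known. Named genes were the members, up to 3 called genes per list and direction with the smallest FDR (the 2 most abundant where none was called), partners of members, and the 3 genes closest to the member with the smallest FDR. One gene that this rule names is not reported here. *Mitf*, *Sox10* and genes at 0 counts were named after their values were seen. Alternatives were 2 other filters, no filter, DESeq2 size factors, library size alone and tagwise dispersions shrunk toward a trend. Others were quasi-likelihood fits with and without the replicate block, DESeq2's Wald test, and each library left out in turn. In the last, the lone library is assumed to vary like the other group. The tests were tested on simulated data. Plots used matplotlib 3.10.9.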

Additional observations from a re-analysis of the deposited data

How the results depend on the processing

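*Vim*, *Cdh2* and *Zeb2* kept their direction under the 13 alternatives run, and *Fn1* kept it while losing its call in some. The number of members called was 1 in the exact test, 2 with library size alone and with DESeq2's Wald test, where *Vim* joined *Fn1* with log2 fold changes of −0.63 and −0.60, 0 in quasi-likelihood fits with or without the replicate block, and 0 to 1 with 1 library left out. For *Fn1* the log2 fold change was −1.17 (FDR = 0.0572) in the quasi-likelihood test and −1.10 (FDR = 0.100) in that test under the replicate block. It was −1.57 to −0.59 with 1 library left out. *Snai2* reversed without parental replicate 1, with a range of −0.86 to 0.26. The log2 ratio of *Zeb1* to *Zeb2* changed by −0.15 between groups, by 0.23 from raw counts and by −0.34 to 0.048 with 1 library left out. The ratio of *Snai1* to *Snai2*, which rests on at most 5 counts of *Snai1*, changed by 0.34, with −0.12 to 0.81. The cause was not tested.

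All genes called fell from 1822 to 1054 under the quasi-likelihood test and to 785 when the replicate block was added, and ran from 773 to 1932 with 1 library left out. The lists moved as follows. EMT regulators, 3 called, had 1 with the quasi-likelihood test, 1 under the replicate block and 1 to 2 with 1 library left out. Corepressors had 1 in DESeq2's Wald test and 0 to 1 with 1 library left out, and other cadherins 0 to 1. Catenins and junction partners had 0 with the replicate block and 0 to 2 with 1 library left out. Epithelial genes, 3 called, had 1 with library size alone, with the quasi-likelihood test and under the replicate block, and 1 to 3 with 1 library left out. Mesenchymal genes, 11 called, had 6 with the quasi-likelihood test, 3 under the replicate block and 5 to 11 with 1 library left out. Invasive genes, 3 called, had 0 with the quasi-likelihood test, 1 under the replicate block and 1 to 2 with 1 library left out. Melanocytic genes, 1 called, had 0 with the quasi-likelihood test and 1 to 2 with 1 library left out.

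Same-numbered libraries share only a number, and their deviations from the group means correlated across genes with r = 0.027, so the replicate block is given here alone. Depth limits *Snai1*, *Zeb1*, *Twist1*, *Cdh1* and *Cdh3*, which the filter removed.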

Other observations

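TRC replicate 1 was the library with the highest level of *Cdh1* and of some other junction and receptor genes, chosen here after their values were seen. *Cdh1* was at 1.76 CPM in it and 0.529 CPM in TRC replicate 3. *Jup*, which encodes the catenin plakoglobin, was at 9.31 and 3.80 CPM in TRC replicates 1 and 3, against 2.65 and 2.78 CPM in parental replicates 1 and 3 (log2 fold change 1.27, FDR = 0.0685 in edgeR's exact test). *F11r* was at 47.6 and 28.2 CPM in TRC replicates 1 and 3, and *Axl* at 39.4 and 9.78 CPM. *Fn1* and *Vim* had their lowest levels in the same library, at 31.5 and 1061 CPM. Other adhesion genes were higher in TRC replicate 3, with *Pkp2* at 10.9 and 16.8 CPM and *Itgb4*, a hemidesmosomal integrin, at 1.32 and 3.15 CPM in TRC replicates 1 and 3. With 2 libraries per group this spread was not tested.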
